A study of Homo sapiens with 12 samples.

Results

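The nuclear lamina genes LMNB1, LMNB2 and LMNA and the inner nuclear membrane genes LBR and EMD were described across 12 expression arrays of U937 cells. They are 5 of the 19775 genes that had at least 1 probe set annotated to their symbol alone. The members were chosen by name, with earlier results of these arrays known, so their tests are no independent evidence that these genes respond. The main probe set of a gene was selected on its mean level over the 12 arrays, which was the highest. The choice arose for LMNA alone, which had 6 probe sets, of which the chosen had a mean of 9.78 and the next 9.26.

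The lamina is a meshwork of intermediate filament proteins under the inner nuclear membrane that carries the shape of the nucleus and anchors silent chromatin. LMNB1 and LMNB2 encode the B-type lamins, which keep a farnesyl anchor to the membrane, and LMNA encodes lamins A and C, which stiffen the nucleus. LBR encodes the lamin B receptor, a membrane protein that binds B-type lamins and heterochromatin protein HP1 and is also a sterol reductase, and EMD encodes emerin, a LEM domain protein that binds lamins and the chromatin protein BAF. In the myeloid lineage the nucleus becomes lobed as neutrophils mature, and inherited lack of LBR leaves neutrophil nuclei under-lobed (the Pelger-Huët anomaly).

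U937 is an established line of human myeloid leukaemia cells that resemble monocytes. They had been transduced to express EVI1, a zinc finger transcription factor of the MECOM locus linked to poor outcome in myeloid leukaemia, or carried the empty vector. Exposure lasted 24 h, either to ATRA (all-trans retinoic acid, a ligand of the retinoic acid receptors) at 1 µM or to its solvent DMSO alone. The 4 groups were EVI1 cells with ATRA, EVI1 cells with DMSO, vector cells with ATRA and vector cells with DMSO, each with 3 arrays that the series calls biological replicates. Whether each transduced line was a clone or a pool is not given in the sources used here, and all groups are of the same cell line.

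Levels are log2 values, so a difference of 1 is a fold of 2, and a gene was tested where it reached a log2 level of at least 5 on at least 3 arrays. All 5 genes passed this limit, among 14080 genes tested. A difference was called where limma's p-value, adjusted over all tested genes by Benjamini-Hochberg, was under 0.05. The same fit with the replicate number as a block is given beside it, because arrays of the same number varied together in all groups. The median level of the 12 arrays lay between 5.29 and 5.35. The number of arrays limits the precision. The 5 MECOM probe sets read between 2.61 and 3.6, below the lower quartile of every array (3.83 to 3.91), so the arrays do not check the EVI1 label. Of the markers of a monocytic myeloid line, 9 of 10 with a probe set passed the limit, and the list's mean level was between 8.35 and 8.86 on the 12 arrays. Of that list FCGR1A, with a mean of 3.46, did not pass, and MPO passed with a mean of 5.29. The means of the erythroid, fibroblast and endothelial, T and NK, B and epithelial marker lists lay between 4.37 and 6.17. Of their genes with a probe set, 4 of 4, 5 of 10, 4 of 6, 3 of 4 and 2 of 5 passed the limit, in that order. Passing the limit therefore does not by itself mark a cell type. In a bulk culture, fewer cells of a kind and less RNA per cell cannot be told apart.

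The promoters of LMNB1, LMNB2 and LBR are shown as examples: LMNB1 had the largest difference with EVI1 among the members, LBR was called with ATRA, and LMNB2 is the B-type counterpart of LMNB1. EMD, called with the block in all 4 comparisons of groups, is described by its motifs alone. Each window runs from 250 bases before to 50 bases after a RefSeq start on GRCh38.p14, is written 5′ to 3′ on the gene's own strand, and positions are counted from the start base as 0. LMNB1 has 2 annotated starts, whose windows are chr5:126776373-126776672 and chr5:126776886-126777185 on the plus strand of chromosome 5. The LMNB2 window is chr19:2456910-2457209 on the minus strand of chromosome 19, and the LBR window is chr1:225428772-225429071 on the minus strand of chromosome 1. Capitals mark AGGTCA, the core element of retinoic acid receptor sites. They also mark GATAAG, of the kind of sequence that the first zinc fingers of EVI1 are known to bind, and CCAAT or its reverse complement.
LMNB1 window 1: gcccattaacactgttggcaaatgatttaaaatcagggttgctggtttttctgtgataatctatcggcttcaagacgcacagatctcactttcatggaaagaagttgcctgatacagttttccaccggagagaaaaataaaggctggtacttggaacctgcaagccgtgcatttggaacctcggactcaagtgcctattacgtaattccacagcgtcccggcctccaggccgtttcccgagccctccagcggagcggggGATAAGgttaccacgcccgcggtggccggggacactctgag
LMNB1 window 2: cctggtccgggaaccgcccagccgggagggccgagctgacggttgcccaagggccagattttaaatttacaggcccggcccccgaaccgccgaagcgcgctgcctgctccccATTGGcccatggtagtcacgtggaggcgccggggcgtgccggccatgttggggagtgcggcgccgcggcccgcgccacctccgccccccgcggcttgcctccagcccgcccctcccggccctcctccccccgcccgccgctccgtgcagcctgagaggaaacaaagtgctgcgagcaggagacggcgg
LMNB2: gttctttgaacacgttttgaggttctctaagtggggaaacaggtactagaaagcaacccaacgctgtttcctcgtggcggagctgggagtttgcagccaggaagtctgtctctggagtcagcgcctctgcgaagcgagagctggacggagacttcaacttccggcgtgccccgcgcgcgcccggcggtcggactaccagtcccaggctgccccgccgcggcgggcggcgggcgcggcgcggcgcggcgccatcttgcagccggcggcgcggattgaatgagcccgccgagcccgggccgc
LBR: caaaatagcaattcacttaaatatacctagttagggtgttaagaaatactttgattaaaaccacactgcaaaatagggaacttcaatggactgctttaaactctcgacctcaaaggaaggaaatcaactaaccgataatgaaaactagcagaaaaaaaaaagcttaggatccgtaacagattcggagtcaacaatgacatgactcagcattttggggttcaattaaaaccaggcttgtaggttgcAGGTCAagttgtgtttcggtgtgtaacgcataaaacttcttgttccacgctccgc

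The LBR window held AGGTCA 5 bases before the start, and 13.8% of the 35116 RefSeq windows of this length hold it on either strand. GATAAG began 9 bases after the first LMNB1 start, and 6.36% of all windows hold it. CCAAT was found on the minus strand of the second LMNB1 window, in the first of 3 LMNA windows and at 2 places in the EMD window, against 34.6% of all windows. The LMNB2 window held none of the 3 marked motifs. A further 7 motifs were searched on both strands. CACGTG (7.26% of all windows) was in the second LMNB1 window, TGACTCA (4.95%) in LBR, TTTGAA (15.2%) in LMNB2 and TTTCCCGC (1.63%) in the first LMNA window. GGGCGG (45% of all windows) was in the second LMNB1 window and those of LMNB2, LMNA and EMD, and TTTGGCGC (0.652%) and TGACGTCA (1.85%) were in none of the members' 8 windows. A match is a description of the letters in the window, not of a bound site.

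LMNB1, the B-type lamin on chromosome 5, was higher in EVI1 than in vector cells under both agents, 3.33-fold under DMSO and 2.73-fold under ATRA. It was the member called in these comparisons without the block. LMNB2, the other B-type lamin, had log2 differences of -0.14 under DMSO and -0.62 under ATRA, neither called without the block. The log2 level of LMNB1 (probe set 203276_at) with DMSO was 10.52, 10.69 and 10.57 in EVI1 cells, against 9.35, 8.21 and 9.01 in vector cells. With ATRA it was 10.48, 10.08 and 9.80 in EVI1 cells, against 9.13, 8.18 and 8.70 in vector cells. All 6 EVI1 arrays lay above all 6 vector arrays. How many of all tested genes separated in the same way is not given here, so this is a description only. Vector replicate 2 was the lowest array under each agent, and the EVI1 arrays with DMSO lay within 0.17 of each other.

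The group means of LMNB1 were 10.59 ± 0.09 in EVI1 cells and 8.86 ± 0.59 in vector cells with DMSO (SD, n = 3 each), a log2 difference of 1.74 ± 0.29 (SE, 95% interval 1.10 to 2.37, limma adjusted p = 0.0123). With ATRA the means were 10.12 ± 0.34 in EVI1 cells and 8.67 ± 0.48 in vector cells (SD, n = 3 each), a difference of 1.45 ± 0.29 (SE, 95% interval 0.82 to 2.08, limma adjusted p = 0.0153). Among the 14080 genes the difference had rank 9 from the highest under DMSO and rank 63 under ATRA. Between arrays of the same number it was 1.17, 2.48 and 1.56 under DMSO and 1.35, 1.90 and 1.10 under ATRA, all above 0. With the replicate block the limma adjusted p was 0.00146 under DMSO and 0.00175 under ATRA. Without the block the DMSO call was lost on leaving out EVI1 DMSO replicate 2 (limma adjusted p = 0.0562) or replicate 3 (0.0502), the range over the 12 such fits being 0.0110 to 0.0562, and the ATRA call on leaving out vector ATRA replicate 2 (0.0597) or replicate 3 (0.0552), of a range of 0.00945 to 0.0597. With the block all 12 such fits kept the call under each agent.

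ATRA itself gave no called difference of LMNB1. The EVI1 arrays with ATRA were below those with DMSO by 0.04, 0.61 and 0.77 within the numbers. The mean difference was -0.47 ± 0.29 (SE, 95% interval -1.11 to 0.16, limma adjusted p = 0.323). The highest ATRA array read 10.48 and the lowest DMSO array 10.52, so the groups separated narrowly. How many tested genes separated likewise is not given here. In vector cells the ATRA and DMSO arrays overlapped, and the difference was -0.19 ± 0.29 (SE, 95% interval -0.82 to 0.45, limma adjusted p = 0.829). With the block the interval was -0.97 to 0.02 in EVI1 cells (limma adjusted p = 0.129) and -0.68 to 0.31 in vector cells (0.611). Of the 12 fits with the block that each left out an array, 1 called the difference in EVI1 cells (limma adjusted p = 0.0284) and 0 that in vector cells.

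**Figure D1:**
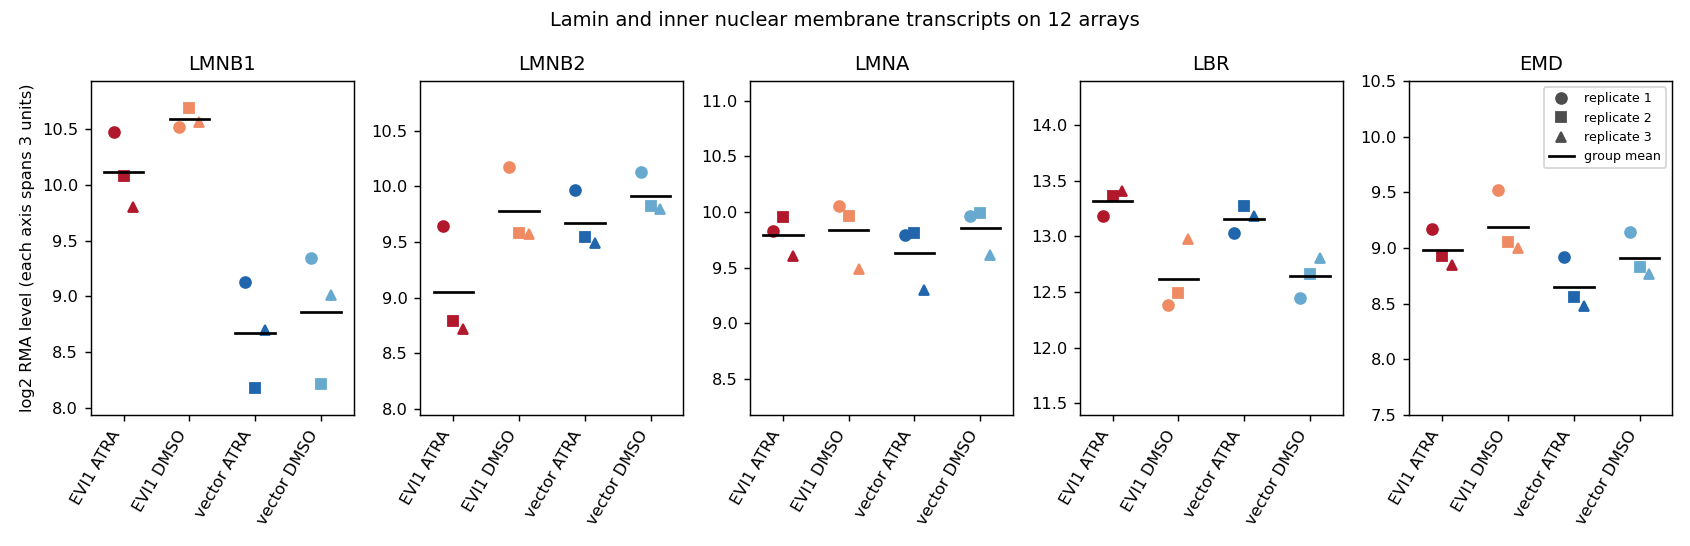
Log2 level of each member on each of the 12 arrays, by group, with the group mean as a line and the replicate number as the marker shape; each axis spans 3 log2 units. LMNB1 is above 9.7 on the 6 EVI1 arrays and below 9.4 on the 6 vector arrays, and LBR is higher on the ATRA arrays than on the DMSO arrays of the same cells.

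For EVI1 against vector under DMSO, 1 of the 5 genes (LMNB1) was called, where 1.21% of all tested genes were called (7.19% with the block, which called 2 members, LMNB1 and EMD). Under ATRA 1 (LMNB1) was called, against 5.61% of all genes (25.3% with the block, which called LMNB1, LMNB2 and EMD). Each array enters a comparison of EVI1 with vector and a comparison of ATRA with DMSO, so these share arrays.

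LBR, the lamin B receptor, was 1.62-fold higher with ATRA in EVI1 cells and 1.43-fold higher in vector cells, and the first of these was called in both fits. Its log2 level (probe set 201795_at, chromosome 1) in EVI1 cells was 13.18, 13.36 and 13.41 with ATRA, against 12.38, 12.49 and 12.98 with DMSO. In vector cells it was 13.03, 13.27 and 13.18 with ATRA, against 12.45, 12.66 and 12.81 with DMSO. In both lines every ATRA array lay above every DMSO array, and DMSO replicate 3 was the highest DMSO array in both. The share of all tested genes whose arrays separated likewise with ATRA is not given here, so the separation only describes LBR.

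In EVI1 cells the LBR means were 13.32 ± 0.12 with ATRA and 12.62 ± 0.32 with DMSO (SD, n = 3 each), a difference of 0.70 ± 0.16 (SE, 95% interval 0.36 to 1.04, limma adjusted p = 0.0125, and 0.000504 with the block). In vector cells they were 13.16 ± 0.12 with ATRA and 12.64 ± 0.18 with DMSO (SD, n = 3 each), a difference of 0.52 ± 0.16 (SE, 95% interval 0.18 to 0.86), which missed the threshold without the block (limma adjusted p = 0.101) and passed it with the block (0.00636). Within the numbers the difference was 0.80, 0.87 and 0.43 in EVI1 cells and 0.58, 0.61 and 0.37 in vector cells. The difference between EVI1 and vector cells in the response, 0.18 ± 0.22 (SE), had a limma adjusted p of 0.998, and its interval of -0.30 to 0.66 holds differences of either sign. Without the block the EVI1 call was lost on leaving out EVI1 DMSO replicate 1 (limma adjusted p = 0.0549), EVI1 DMSO replicate 2 (0.054) or EVI1 ATRA replicate 3 (0.0557), of a range of 0.00281 to 0.0557 over the 12 fits. EVI1 status gave no called difference of LBR, 0.16 ± 0.16 (SE) under ATRA and -0.02 ± 0.16 (SE) under DMSO.

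Without the block 15.1% of all tested genes were called for ATRA in EVI1 cells and 3.52% in vector cells, and LBR was the member called in EVI1 cells, with 0 members in vector cells by limma, where 1 member and 2454 genes had an unadjusted p under 0.05. With the block the shares were 35.7% and 20.0%, with 3 members called in EVI1 cells (LMNB2, LBR and EMD) and 2 in vector cells (LBR and EMD). For the interaction of EVI1 with ATRA limma called 0 genes, 0% of those tested, with and without the block, while 362 genes had an unadjusted p under 0.05 without it.

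**Figure D2:**
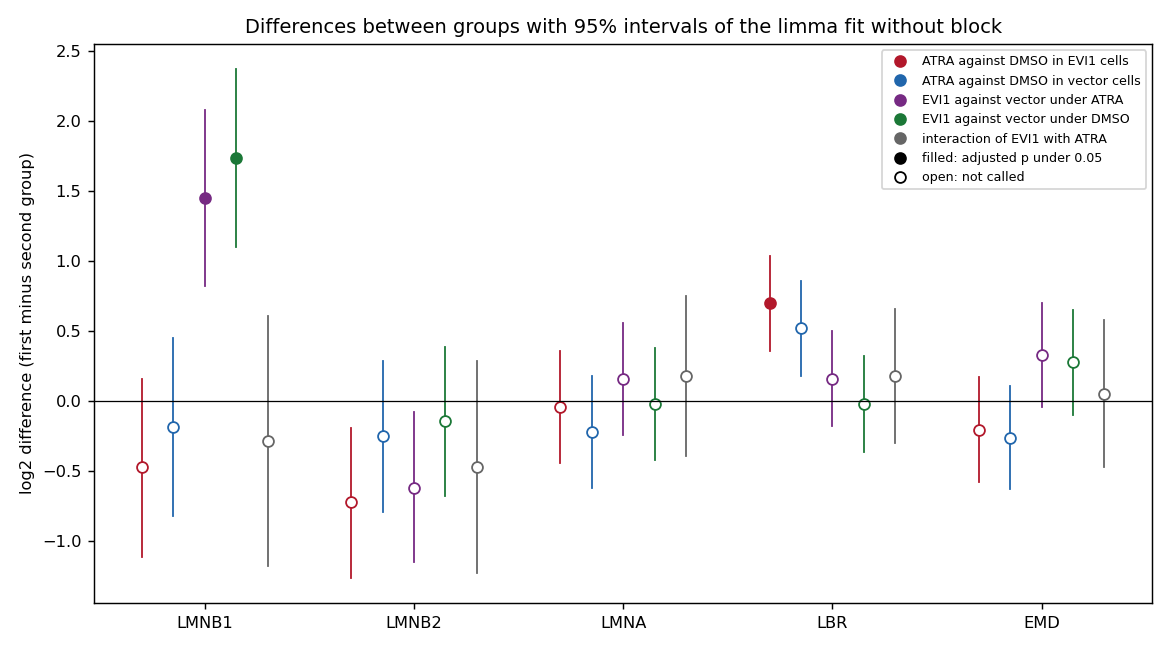
Log2 difference of each member in each comparison, first-named minus second-named group, with the 95% interval of the limma fit without the block; filled points have an adjusted p under 0.05. The filled points are LMNB1 in EVI1 against vector cells under both agents and LBR with ATRA in EVI1 cells.

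LMNB2, the B-type lamin on chromosome 19, was lower with ATRA in EVI1 cells, a difference that was called with the block and not without it. Its log2 level (probe set 216952_s_at) in EVI1 cells was 9.64, 8.79 and 8.72 with ATRA, against 10.17, 9.58 and 9.57 with DMSO. In vector cells it was 9.97, 9.54 and 9.49 with ATRA, against 10.13, 9.82 and 9.80 with DMSO. In every group replicate 1 was the highest array, and the groups overlapped in each comparison. EVI1 ATRA replicate 1 was above the EVI1 DMSO and vector ATRA arrays of the other numbers.

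In EVI1 cells the LMNB2 means were 9.05 ± 0.51 with ATRA and 9.77 ± 0.34 with DMSO (SD, n = 3 each). The difference of -0.72 ± 0.25 (SE, 95% interval -1.26 to -0.19) missed the threshold without the block (limma adjusted p = 0.0688) and passed it with the block (0.00054). Leaving out EVI1 ATRA replicate 1 gave -1.02 (limma adjusted p = 0.00533, of a range of 0.00533 to 0.259 over the 12 fits without the block). Against vector cells under ATRA, with means of 9.05 ± 0.51 in EVI1 cells and 9.67 ± 0.26 in vector cells (SD, n = 3 each), the difference was -0.62 ± 0.25 (SE, limma adjusted p = 0.173, and 0.00305 with the block). Under DMSO it was -0.14 ± 0.25 (SE, limma adjusted p = 0.965, and 0.485 with the block). In vector cells with ATRA LMNB2 differed by -0.25 ± 0.25 (SE, limma adjusted p = 0.688, and 0.129 with the block), and within the numbers by -0.16, -0.28 and -0.31. With the block that interval was -0.49 to -0.01. Of the 12 fits with the block that each left out an array, 1 called it (limma adjusted p = 0.0395). The change of the ATRA difference with EVI1 was -0.47, with an interval of -1.23 to 0.29 without the block and -0.81 to -0.14 with it, and was not called in either fit (limma adjusted p 0.998 and 0.346).

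LMNA, which encodes lamins A and C, gave no called difference in any comparison, with or without the block. Its main probe set (203411_s_at, chromosome 1) read 9.83, 9.95 and 9.60 in EVI1 cells and 9.79, 9.81 and 9.30 in vector cells with ATRA. With DMSO it read 10.05, 9.96 and 9.49 in EVI1 cells and 9.96, 9.99 and 9.61 in vector cells. Replicate 3 was the lowest array in every group, and the groups overlapped throughout. The mean with ATRA was 9.79 ± 0.18 in EVI1 cells and 9.63 ± 0.29 in vector cells, and with DMSO 9.83 ± 0.30 in EVI1 cells and 9.85 ± 0.21 in vector cells (SD, n = 3 each). Without the block, the 95% intervals in the 4 comparisons of groups reached no further from 0 than -0.62 and 0.56. These limits belonged to ATRA in vector cells and EVI1 under ATRA, and the limma adjusted p was 0.622 or more. For ATRA in vector cells the difference was -0.22, and within the numbers -0.17, -0.18 and -0.31. With the block its interval was -0.39 to -0.05 (limma adjusted p = 0.068). Of the 12 fits with the block that each left out an array, 1 called it (limma adjusted p = 0.0497).

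The other LMNA probe sets were 212086_x_at, 1554600_s_at, 212089_at, 214213_x_at and 244225_x_at. The first 4 passed the limit, and their differences in the 4 comparisons of groups lay between -0.24 and 0.22, none called. The probe set 244225_x_at had group means of 3.25 to 3.49, under the limit. Several of these differences lay so near 0 that their sign changed between probe sets.

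**Figure D3:**
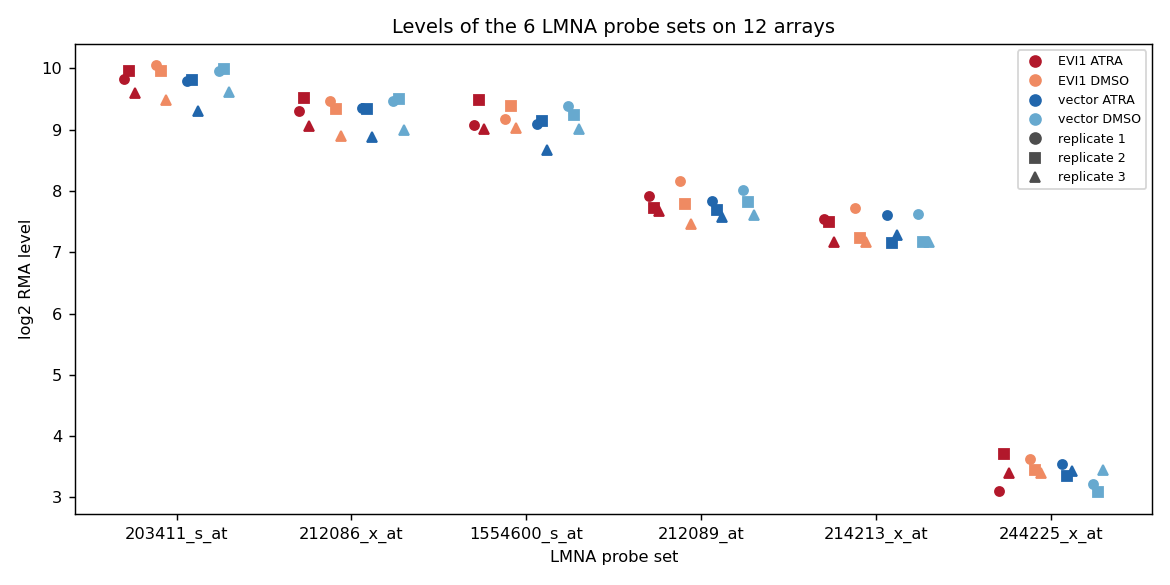
Log2 level of the 6 LMNA probe sets on the 12 arrays, coloured by group, with the replicate number as the marker shape. The 4 groups overlap on each probe set, and 244225_x_at lies below the limit of 5; levels of different probe sets are not on a common scale.

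EMD, which encodes emerin, showed small differences. Its log2 level (probe set 209477_at, chromosome X) with ATRA was 9.17, 8.93 and 8.85 in EVI1 cells, against 8.92, 8.56 and 8.48 in vector cells. With DMSO it was 9.52, 9.05 and 9.0 in EVI1 cells, against 9.14, 8.83 and 8.77 in vector cells. Replicate 1 was the highest array in each group, and the groups overlapped in each comparison, while within each number the EVI1 array was above the vector array and the ATRA array below the DMSO array.

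The EMD mean with ATRA was 8.98 ± 0.17 in EVI1 cells and 8.65 ± 0.23 in vector cells, and with DMSO 9.19 ± 0.29 in EVI1 cells and 8.91 ± 0.20 in vector cells (SD, n = 3 each). EVI1 cells exceeded vector cells by 0.33 ± 0.17 (SE) under ATRA (limma adjusted p = 0.303, and 0.00704 with the block) and by 0.28 ± 0.17 (SE) under DMSO (limma adjusted p = 0.713, and 0.0363 with the block). With ATRA EMD differed by -0.21 ± 0.17 (SE) in EVI1 cells (limma adjusted p = 0.491, and 0.0375 with the block) and by -0.26 ± 0.17 (SE) in vector cells (limma adjusted p = 0.492, and 0.0244 with the block). Of the 12 fits with the block that each left out an array, the EVI1 difference was called in 12 under ATRA and in 2 under DMSO, and the ATRA difference in 2 in EVI1 cells and 6 in vector cells.

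**Figure D4:**
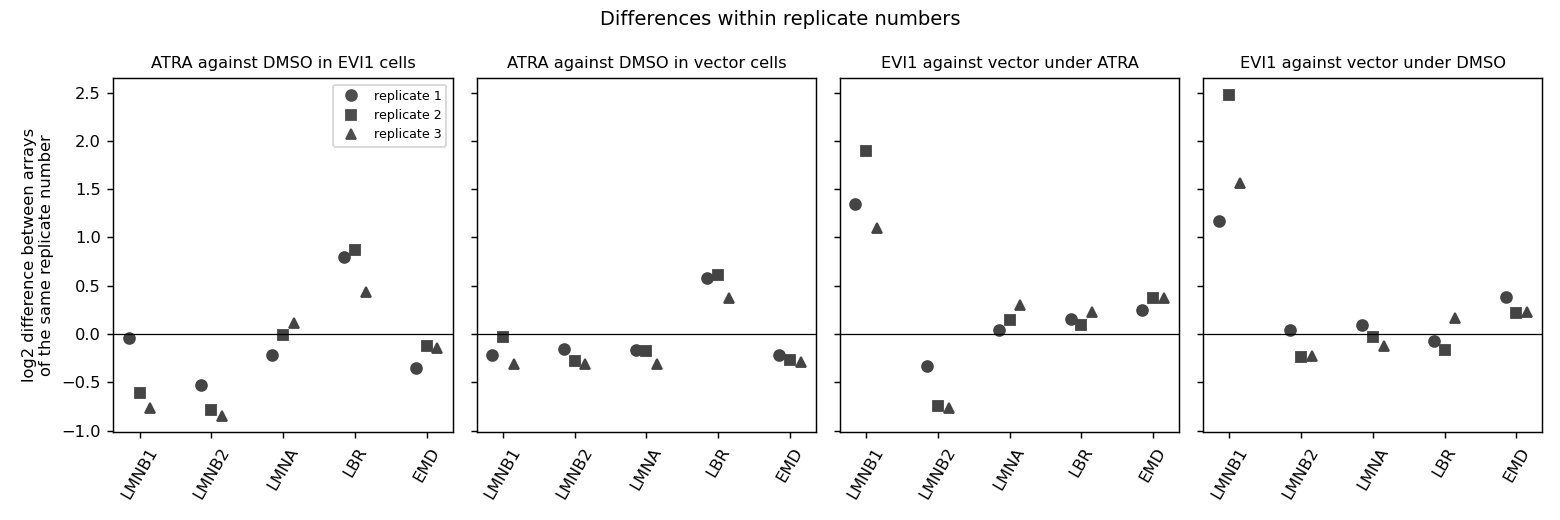
Log2 difference between arrays of the same replicate number, for each member in the 4 comparisons of groups (first-named minus second-named). The 3 differences of LMNB1 are above 1 in both comparisons of EVI1 with vector cells, and the 3 differences of LBR are above 0 in both comparisons of ATRA with DMSO.

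The order of the group means, from lowest to highest, was vector ATRA, vector DMSO, EVI1 ATRA and EVI1 DMSO for LMNB1 and for EMD. In LMNB1 the gap of 1.26 between vector DMSO and EVI1 ATRA was larger than the pooled SD of 0.48 and the arrays did not overlap. The gap of 0.19 between the vector groups lay within the spread. The share of all tested genes with such gaps is not given here, so the orders are descriptions only. In LBR the order was EVI1 DMSO, vector DMSO, vector ATRA and EVI1 ATRA, and the gap of 0.52 between the DMSO and ATRA groups exceeded the pooled SD of 0.15. In LMNB2 the order was EVI1 ATRA, vector ATRA, EVI1 DMSO and vector DMSO, with overlapping neighbours throughout. LMNA and EMD also had overlapping neighbours throughout.

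The genes whose profiles over the 12 arrays were nearest to each member, by the root mean square difference of mean-centred log2 values, were described as patterns only. For LMNB1 they were FRMD4A (0.282), TRIM58 (0.332) and RINT1 (0.4), against a root mean square of 0.885 for LMNB1 about its own mean. FRMD4A was also higher in EVI1 cells, by 1.56 under DMSO and 1.27 under ATRA. For LBR they were MYADM (0.093), CYP1A1 (0.097) and VAT1 (0.109), of which MYADM differed by 0.78 with ATRA in EVI1 cells and 0.50 in vector cells. For LMNB2 they were the helicase genes DDX56 (0.069) and DDX39A (0.074) and the ribosome assembly gene TSR1 (0.08), for LMNA DOLK (0.09), BATF (0.096) and LOC285191 (0.096), and for EMD EOLA1 (0.078), PEA15 (0.079) and the proteasome gene PSMD8 (0.085). All these profiles share the same 12 arrays and replicate numbers.

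None of the 10 tested genes nearest to LMNB1 on the chromosome was called higher in EVI1 cells. Counting 5 tested genes on each side, which were examined after the values were seen, the difference of EVI1 from vector cells lay between -0.78 and 0.14 under ATRA and between -0.91 and 0.14 under DMSO. Under ATRA 3 of the 10 were called, all lower in EVI1 cells, namely MARCHF3 (-0.78), PRRC1 (-0.68) and SLC12A2 (-0.77), and under DMSO SLC12A2 was called (-0.91). These counts stand beside 5.61% of all genes called under ATRA and 1.21% under DMSO. With EVI1, 2 neighbours each of LBR and EMD were called under ATRA and 1 each under DMSO, and 0 of LMNA and LMNB2. The neighbours named here were chosen after their values were seen. With ATRA in EVI1 cells, where 15.1% of all genes were called, 4 of the 10 neighbours of LMNB2 were called, all lower: LSM7 (-0.47), TIMM13 (-0.76), GADD45B (-0.58) and SLC39A3 (-0.84). In the same comparison 2 neighbours of LBR were called (WDR26 at 0.57 and CNIH3 at -0.80), 2 of LMNA (LAMTOR2 at 0.64 and SSR2 at 0.37), 1 of EMD (DNASE1L1 at 0.69) and 0 of LMNB1.

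**Figure D5:**
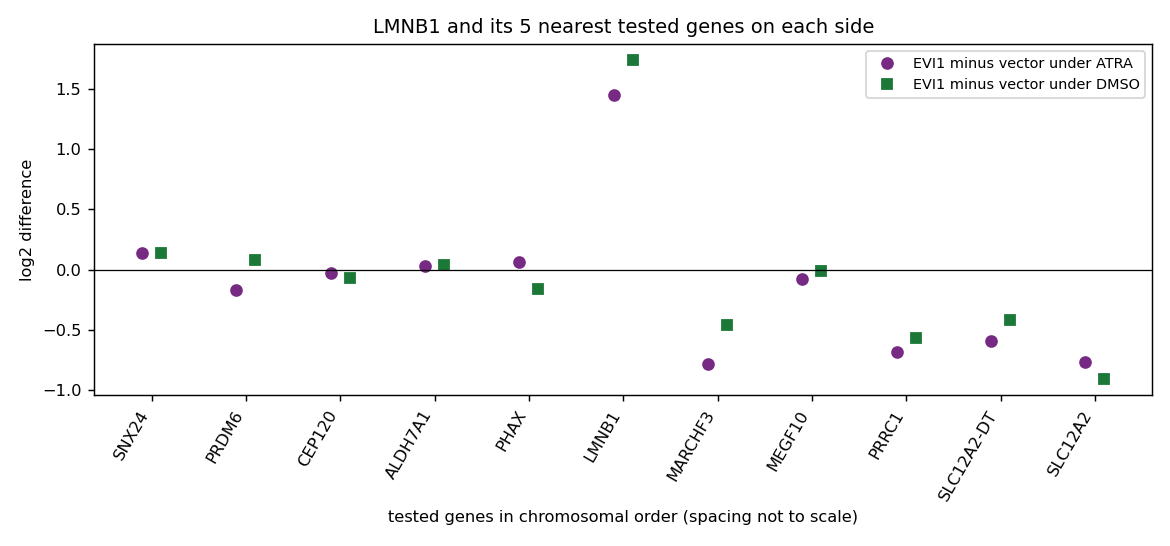
Log2 difference, EVI1 minus vector cells, of LMNB1 and the 5 nearest tested genes on each side, in chromosomal order with spacing not to scale; circles are ATRA and squares DMSO. LMNB1 stands at 1.45 and 1.74, and the 10 neighbours lie between -0.91 and 0.14.

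Of 16 tested partners at the nuclear envelope (LEM domain, SUN, nesprin and torsin genes among them), 1 rose and 2 fell with ATRA in EVI1 cells, beside 15.1% of all tested genes called there, with a median difference of -0.18 against -0.02 over all genes. TOR1AIP1, an activator of torsin, rose by 0.53 there and by 0.41 in vector cells (limma adjusted p = 0.00429 and 0.0375). TMEM201, an inner membrane protein, fell by 1.03 (limma adjusted p = 0.00469) and SUN1, which links the lamina to the cytoskeleton, by 0.65 (limma adjusted p = 0.00803). SUN1 was also lower in EVI1 than in vector cells under ATRA (-0.60, limma adjusted p = 0.0236), the 1 partner called there. Under DMSO limma called 0 partners with and without the block, and 2 had an unadjusted p under 0.05. With the block 5 partners rose and 4 fell with ATRA in EVI1 cells, beside 35.7% of all genes, and 2 rose and 2 fell in vector cells, beside 20.0%. With EVI1 under ATRA the block called 1 higher and 4 lower, beside 25.3% of all genes.

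Of 6 tested genes of lamin processing, FNTA, the alpha subunit of farnesyltransferase, was -0.47 in EVI1 against vector cells under each agent (limma adjusted p = 0.0108 under ATRA and 0.0204 under DMSO). ICMT, the methyltransferase of the farnesylated end, was -0.60 under ATRA (limma adjusted p = 0.0324). These 2 genes were the calls in that list, beside 5.61% of all tested genes called with EVI1 under ATRA and 1.21% under DMSO. With the block 1 gene also fell with ATRA in EVI1 cells, beside 35.7% of all genes. No gene of 9 tested in post-squalene sterol synthesis, the pathway of LBR's reductase activity, was called by limma in any comparison without the block, where 1 (under ATRA, with EVI1) had an unadjusted p under 0.05. With the block 1 fell with ATRA in EVI1 cells, 1 rose in vector cells, and with EVI1 2 fell under ATRA and 1 under DMSO. The shares of all genes called with the block were 35.7%, 20.0%, 25.3% and 7.19%, in that order.

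Of 27 tested pore genes, 9 fell and 1 rose with ATRA in EVI1 cells, where 15.1% of all genes were called (median -0.37 against -0.02 for all genes, and 19 fell with the block), with NUP155 at -0.60, NUP93 at -0.58, SEH1L at -0.58, NUP88 at -0.54, NUP205 at -0.52 and NUP160 at -0.46. In vector cells 0 were called by limma (5 had an unadjusted p under 0.05, and 5 fell with the block), with a median of -0.14. NUP214, a pore gene of the cytoplasmic face, was higher with EVI1 under ATRA, by 0.40 (limma adjusted p = 0.0436), and with ATRA in EVI1 cells by 0.34 (0.0442). With the block 2 pore genes rose and 10 fell with EVI1 under ATRA, where the block called 25.3% of all genes. With EVI1 under DMSO the block called POM121 higher (0.32, limma adjusted p = 0.0283), beside 7.19% of all genes. POM121 was also 0.32 higher under ATRA (0.0119 with the block), and was called under neither agent without the block. For ATRA the block called 35.7% of all genes in EVI1 cells and 20.0% in vector cells.

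The counts in the following lists stand beside the shares of all tested genes called. These shares were 15.1% for ATRA in EVI1 cells (35.7% with the block) and 3.52% in vector cells (20.0%). For EVI1 against vector they were 5.61% under ATRA (25.3% with the block) and 1.21% under DMSO (7.19%). Of 11 heterochromatin partners, UHRF1 (-0.73) and CBX3, the HP1 gamma gene (-0.38), fell with ATRA in EVI1 cells (limma adjusted p = 0.0321 and 0.028), with a median of -0.31. With the block 5 fell there, 1 fell with ATRA in vector cells and 6 fell with EVI1 under ATRA. Of 10 genes of mitotic breakdown and reassembly of the lamina, the phosphatase gene PPP1CC fell with ATRA in EVI1 cells (-0.33, limma adjusted p = 0.0358), and the kinase gene PRKCD was 0.63 higher with EVI1 under ATRA (limma adjusted p = 0.0347). With the block 1 of these 10 rose and 3 fell with ATRA in EVI1 cells, 1 fell in vector cells, and with EVI1 1 rose and 2 fell under ATRA and 2 rose under DMSO. Of 22 replication and mitosis genes, 6 fell with ATRA in EVI1 cells (median -0.41, and 13 with the block), among them CDC45 (-0.97), CDC6 (-0.81) and MCM2 (-0.79). Under ATRA, 2 were lower with EVI1 (MCM4 at -0.77 and PCNA at -0.66), and 15 with the block. Under DMSO limma called 0 with EVI1 (2 at an unadjusted p under 0.05), and with the block 1 rose (CENPF at 0.56) and 1 fell (PLK1 at -0.57). The part of cell cycle in the members' levels was not tested.

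Of 14 tested genes listed under granulocytic maturation, 10 rose with ATRA in EVI1 cells (median 1.38), beside 15.1% of all genes called, and 10 with the block (35.7%). The largest rises were NCF1 by 3.53, S100A9 by 3.49, S100A8 by 3.06, ITGAM by 2.80, CEBPE by 2.00 and CYBB by 1.78. LTF (0.12), CAMP (0.18), LCN2 (-0.10) and MMP9 (0.10) were not called there in either fit, and S100A12 did not pass the limit. In vector cells 3 rose (NCF1 by 3.27, ITGAM by 2.61 and CXCR2 by 0.80), and 9 with the block, beside 3.52% and 20.0% of all genes. LTF, CAMP, LCN2 and MMP9 were not called in vector cells either. With EVI1 under ATRA FPR2 was called higher (1.07, limma adjusted p = 0.0402), beside 5.61% of all genes called. With the block 4 were, FPR2, S100A8, S100A9 and CEBPE, beside 25.3%. Under DMSO limma called 0 in either fit (1 at an unadjusted p under 0.05 without the block). LBR was higher in the same ATRA arrays, and the part of maturation in its level was not tested. ITGAM is also on the monocytic list, so the list's name does not tell granulocytic from monocytic maturation. The monocytic list's mean was 8.72 to 8.86 with EVI1 ATRA, 8.35 to 8.56 with EVI1 DMSO, 8.67 to 8.77 with vector ATRA and 8.35 to 8.53 with vector DMSO. Of that list ITGAM and CSF1R (0.62) rose with ATRA in EVI1 cells. With the block ITGB2 (0.69) also rose, and LYZ (-0.45) and ELANE (-0.53) fell. Among genes listed as markers of other cell types, 1 of 5 tested fibroblast and endothelial genes (PECAM1) and 1 of 3 tested B-cell genes (CD79B) were called without the block. Both were higher with ATRA in EVI1 cells (1.10 and 0.55) and with EVI1 under ATRA (1.00 and 0.77). PECAM1 read 10.4 or more on every array, with a mean of 11.25, against a mean of 7.50 for COL1A1, the next highest gene of its list. The other B-cell genes with ATRA in EVI1 cells were PAX5 at -0.53, called with the block, and CD79A at -0.05. With EVI1, PAX5 was called higher with the block under ATRA (0.54) and DMSO (0.69). The block also called NKG7 of the T and NK list higher with EVI1 under ATRA (0.55) and DMSO (0.39). It further called CD79B higher with EVI1 under DMSO (0.48) and PECAM1 higher with ATRA in vector cells (0.61). The mean of the fibroblast and endothelial list was 5.56 to 5.59 on the EVI1 ATRA arrays, 5.39 to 5.49 with EVI1 DMSO, 5.45 to 5.50 with vector ATRA and 5.33 to 5.51 with vector DMSO. The mean of the B-cell list was 5.86 to 6.05 with EVI1 ATRA and 5.84 to 6.17 with EVI1 DMSO, which overlap, 5.60 to 5.78 with vector ATRA and 5.68 to 5.86 with vector DMSO. The part of these markers in the members' differences was not tested.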

How the data were processed

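Per the labels' protocols, biotinylated RNA from 250 ng of total RNA was hybridised to Affymetrix 3′ arrays. Per the submitters' processing notes, the authors made the deposited log2 values with RMA in Affymetrix Expression Console 1.3; its settings are not given in the sources used here. RMA puts all arrays on a common distribution, so a shift of most transcripts would not be seen. Of 54675 probe sets, 41097 had 1 symbol in the platform annotation, and 1801 with several and 11777 unlisted were left out. Limma 3.58.1 in R 4.3.3 was fitted to the 4 group means over 12 arrays (8 residual degrees of freedom), on the probe set with the highest mean of each of 14080 genes. The fit without the block was run on simulated data in which the noise was drawn independently for each array. That run does not bear on arrays that vary together by replicate number. The replicate numbers pair the arrays: in all 18 pairs of arrays with the same number and different groups, the deviations from the group means correlated at over 0.1 (0.408 to 0.704), the numbers being those of the labels. The members and lists were chosen with earlier results of these data known. Genes were named by a rule: the members, the called genes of each list (at most 6 with the largest difference), the 3 nearest profiles of each member, and MECOM. Chromosomal neighbours and some list genes not called, or called with the block alone, were named outside this rule. Alternatives covered the filter, scaling, probe set, prior, block, arrays compared and arrays left out, and the block with an array left out was added after seeing the data. Promoter windows came from RefSeq.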

Additional observations from a re-analysis of the deposited data

How the results depend on the processing

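The number of arrays limits all results: called differences of LMNB1 and LBR lay near the threshold without the replicate block and further from it with the block. With the replicate block, 3 members were called for ATRA in EVI1 cells, 2 for ATRA in vector cells, 3 for EVI1 under ATRA and 2 for EVI1 under DMSO, against 1, 0, 1 and 1 without it. The shares of all tested genes called were 35.7%, 20.0%, 25.3% and 7.19% with the block, against 15.1%, 3.52%, 5.61% and 1.21% without it, in that order. The rise in members called thus went with a rise over all genes. With only the arrays compared, 0 were called for ATRA in EVI1 cells (LBR, limma adjusted p = 0.0613). Without both DMSO arrays of number 3, 1 member (LBR) was called for ATRA in vector cells and 0 for EVI1 under DMSO, where LMNB1 differed by 1.82 (limma adjusted p = 0.125). Without all 4 arrays of number 3, 0 were called for EVI1 under either agent, LMNB1 differing by 1.62 under ATRA (limma adjusted p = 0.185) and 1.82 under DMSO (0.239), against 1.45 and 1.74 with all arrays; fewer arrays were then tested. Leaving out each array in turn, with or without the block, gave 0 to 3 members called for ATRA in EVI1 cells and 0 to 4 for ATRA in vector cells. It gave 0 to 3 for EVI1 under ATRA and 0 to 2 for EVI1 under DMSO. Shares of all genes called in the fits on fewer arrays are not given here, so these counts describe the members only. For ATRA in vector cells, 1 of the 12 such fits without the block called a member (LBR). For the interaction at most 1 member was called (LMNB2, without EVI1 ATRA replicate 1 and with the block).

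Signs turned only for differences that were not called, and the cause was not tested. LMNA turned to 0.03 for EVI1 under DMSO with the mean of all probe sets (0.027), without both DMSO arrays of number 3 and without all 4 arrays of number 3. It turned to 0.06 for ATRA in EVI1 cells with probe set 212086_x_at. With 214213_x_at it turned to 0.027 for ATRA in EVI1 cells, 0.03 for ATRA in vector cells, 0.06 for EVI1 under DMSO and -0.003 for the interaction. With arrays left out in turn, with or without the block, differences that took both signs ranged from -0.212 to 0.068 for LMNA with ATRA in EVI1 cells, from -0.142 to 0.152 for LMNA and -0.205 to 0.095 for LBR with EVI1 under DMSO, from -0.007 to 0.257 for LMNA with EVI1 under ATRA, from -0.51 to 0.06 for LMNB1 with ATRA in vector cells, and from -0.542 to 0.037 for LMNB1 and -0.06 to 0.218 for EMD in the interaction.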
